A study of Mus musculus with 6 samples.

Results

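Pltp and 6 further genes of high-density lipoprotein (HDL) remodelling, namely Lcat, Abca1, Abcg1, Scarb1, Lipg and Lipc, were followed in the livers of male C57BL/6 mice on 6 arrays. The 7 genes were listed by name, and each was read from the probe that carries its symbol alone. The set was chosen by measured values, since Pltp had stood out in earlier results of this same comparison for its lower level after Vascepa, so the differences between the groups are given for these genes as a description and without a test. Of the 7 genes, 6 had 1 probe of their own each and no probe shared with another gene, and all 6 passed the intensity filter. It kept genes whose mean over the 6 arrays was at least 2.65 (log2), the median over all probes, and left 13493 of 22180 genes that had their own probe. Lipc was not analysed here. The first group was given Vascepa, a preparation of icosapent ethyl (eicosapentaenoic acid, an omega-3 fatty acid, as its ethyl ester), for 7 days and then a high-fat diet for 6 weeks (3 arrays). The second group was given vehicle for 7 days and then the same diet for 6 weeks (3 arrays). The mice of both groups were 8 weeks old when they were acclimatized. No group without the diet was analysed here, and the labels do not state whether each array stands for a different animal, so the spread between them may be technical.

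HDL particles collect cholesterol from cells and carry it to the liver. The cholesterol exporter ABCA1 loads apolipoprotein A-I with lipid, ABCG1 adds more cholesterol to the young particle, and LCAT esterifies it so that the particle becomes a sphere. PLTP moves phospholipids between lipoproteins and changes the size of HDL, hepatic lipase (Lipc) and endothelial lipase (Lipg) hydrolyse its lipids, and the receptor SR-BI (Scarb1) takes its cholesteryl esters into the hepatocyte. In mice, Pltp, Abca1 and Abcg1 are known targets of the liver X receptors (LXR), nuclear receptors that sense oxidised cholesterol.

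Promoter windows from RefSeq (build GRCm38.p6) were found for 4 of the 7 genes, Pltp, Lcat, Abca1 and Lipc, and those of Pltp and Abca1 are printed because both genes are known LXR targets and their values are set beside each other below. Each runs 5′ to 3′ on the strand of the gene over 300 bases, 250 before and 50 after the annotated start. Pltp lies on the minus strand at chr2:164857659-164857958 and Abca1 on the minus strand at chr4:53159846-53160145. Capitals mark matches on either strand. The TATA box was searched as TATAAA, where transcription complexes assemble. The GC box was searched as GGGCGG, a site of Sp1-type factors, and the E-box as CACGTG, a site of basic helix-loop-helix factors. The direct repeat with a 4-base spacer, the kind that LXR binds, was searched as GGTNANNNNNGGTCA. That last pattern was written after the Abca1 window had been read.
Pltp: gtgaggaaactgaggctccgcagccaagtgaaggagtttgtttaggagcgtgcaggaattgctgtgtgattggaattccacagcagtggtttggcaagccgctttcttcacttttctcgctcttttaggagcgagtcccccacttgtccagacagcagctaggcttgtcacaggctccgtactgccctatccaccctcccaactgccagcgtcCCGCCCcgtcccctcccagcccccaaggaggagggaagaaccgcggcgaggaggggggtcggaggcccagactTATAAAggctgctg
Abca1: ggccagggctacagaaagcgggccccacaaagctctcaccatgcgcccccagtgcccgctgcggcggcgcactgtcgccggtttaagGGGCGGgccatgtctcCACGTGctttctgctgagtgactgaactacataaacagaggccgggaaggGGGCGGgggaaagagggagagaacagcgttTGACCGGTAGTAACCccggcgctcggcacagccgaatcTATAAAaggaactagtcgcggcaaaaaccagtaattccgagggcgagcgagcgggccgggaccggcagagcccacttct

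The Pltp window held 1 GC box, whose first base lies 37 bases before the annotated start, and 1 TATA box, from base 37 after it. The Abca1 window held 2 GC boxes, 1 E-box, 1 TATA box 29 bases before the start and 1 match to the direct repeat, 67 bases before it. Of 32851 promoter windows of the same length, 13.6% held the TATA box, 35.7% the GC box, 7.15% the E-box and 0.207% the direct repeat. The Pltp window held no match to the E-box or the direct repeat, which says only that these letters are not in it.

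Livers after Vascepa held less Pltp message than livers after vehicle in the mean of the arrays, while the Abca1 mean was higher and that of Abcg1 slightly lower. Pltp was 1.71-fold lower, Lipg 1.34-fold lower and Lcat 1.32-fold lower. Scarb1 was 1.19-fold lower, Abcg1 1.10-fold lower and Abca1 1.27-fold higher. Of the 6 genes, 5 had a lower mean after Vascepa, as had 60.1% of all genes tested. The median of the 6 log2 differences was −0.32, Pltp included, against −0.06 over all genes. Brighter genes lay lower, with a median of −0.14 over the 7211 genes whose mean reached the 75th percentile of all probes. None of the 13493 genes passed an adjusted p under 0.05 (limma, 0 genes called, 0%), and 362 genes had an unadjusted p under 0.05. These 362 are a smaller share than the 0.05 looked for where no gene differs. All levels are deposited log2 values, and a difference of 1 is a doubling.

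Pltp, the plasma phospholipid transfer protein, had log2 levels of 7.35, 6.91 and 6.97 on Vascepa arrays 1, 2 and 3, against 7.84, 7.67 and 8.04 on vehicle arrays 1, 2 and 3. Every Vascepa array lay below every vehicle array, with a gap of 0.32 between the highest Vascepa array and the lowest vehicle array. The mean was 7.07 ± 0.24 after Vascepa and 7.85 ± 0.19 after vehicle (SD, n = 3 each), a log2 difference of −0.78 ± 0.20 (limma's moderated SE). The gap between the groups was somewhat smaller than the range within each, which was 0.44 over the Vascepa arrays and 0.38 over the vehicle arrays. All Vascepa arrays lay below all vehicle arrays in 5.11% of the genes tested. Among the 6 measured genes this held for 2, Pltp and Lcat. Of the genes tested, 30.3% had a smaller within-group SD than the 0.21 of Pltp. Since Pltp was chosen by these values, its SD is given as a description too.

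**Figure D1:**
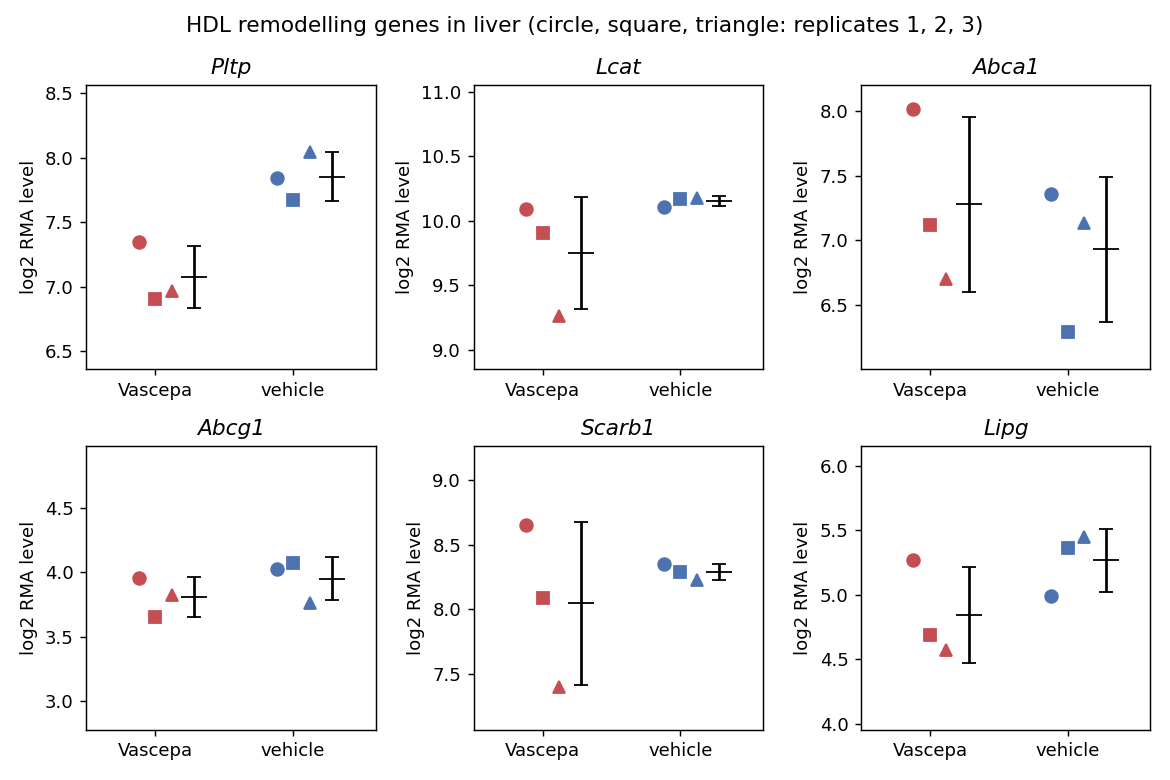
Log2 expression level (vertical axis, RMA units, all panels spanning ranges of the same size) of the 6 measured HDL remodelling genes in liver. Points are arrays, Vascepa left and vehicle right of it, with circle, square and triangle for replicates 1, 2 and 3, and bars show the mean ± SD of 3 arrays. In Pltp the Vascepa arrays lie between 6.91 and 7.35 and the vehicle arrays between 7.67 and 8.04, while the groups overlap in Abca1, Abcg1, Scarb1 and Lipg.

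Lcat, the enzyme that esterifies cholesterol on HDL, had log2 levels of 10.09, 9.91 and 9.26 on Vascepa arrays 1, 2 and 3, against 10.11, 10.17 and 10.18 on vehicle arrays 1, 2 and 3. The groups did not overlap, but only by 0.020 on the log2 scale, and the array that stood apart was Vascepa array 3. The mean was 9.75 ± 0.43 after Vascepa and 10.15 ± 0.040 after vehicle (SD, n = 3 each), a log2 difference of −0.40 ± 0.24 (SE). Without Vascepa array 3 this difference was −0.16.

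Lipg, the endothelial lipase that hydrolyses HDL phospholipids, read 5.26, 4.69 and 4.57 on Vascepa arrays 1, 2 and 3, against 4.99, 5.36 and 5.45 on vehicle arrays 1, 2 and 3. The groups overlapped here, because Vascepa array 1 lay above vehicle array 1. The means were 4.84 ± 0.37 after Vascepa and 5.27 ± 0.24 after vehicle (SD, n = 3 each), with a log2 difference of −0.42 ± 0.24 (SE). This difference lay between −0.64 and −0.29 when single arrays were left out, and was −0.29 without Vascepa array 3.

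Scarb1, the receptor through which hepatocytes take up HDL cholesteryl esters, read 8.65, 8.09 and 7.39 on Vascepa arrays 1, 2 and 3, against 8.35, 8.29 and 8.23 on vehicle arrays 1, 2 and 3. The vehicle arrays spanned 0.12 and the Vascepa arrays 1.25 on the log2 scale, so the Vascepa arrays lay on both sides of the vehicle group. The mean was 8.04 ± 0.63 after Vascepa and 8.29 ± 0.060 after vehicle (SD, n = 3 each), a log2 difference of −0.25 ± 0.31 (SE). The sign turned without Vascepa array 3, to 0.080, and the difference was −0.55 without Vascepa array 1. Lcat and Scarb1 had the most alike profiles of any pair among the 6 genes. After each gene was centred on its own mean, the root mean square of the differences between their log2 values over the 6 arrays was 0.17.

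Abca1, the exporter that starts HDL formation, read 8.02, 7.12 and 6.70 on Vascepa arrays 1, 2 and 3, against 7.36, 6.29 and 7.13 on vehicle arrays 1, 2 and 3. Its groups overlapped over most of their range, with the highest level on Vascepa array 1 and the lowest on vehicle array 2. The mean was 7.28 ± 0.68 after Vascepa and 6.93 ± 0.56 after vehicle (SD, n = 3 each), a log2 difference of 0.35 ± 0.40 (SE), which is smaller than its own error. It was −0.022 without Vascepa array 1, 0.031 without vehicle array 2 and 0.64 without Vascepa array 3. Abca1 was the least steady of the 6 genes within groups, at a pooled SD of 0.62 that exceeded that of 92.3% of the genes tested.

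Abcg1, the half-transporter that adds cholesterol to existing HDL, read 3.95, 3.65 and 3.82 on Vascepa arrays 1, 2 and 3, against 4.02, 4.07 and 3.76 on vehicle arrays 1, 2 and 3. These arrays overlapped, and all 6 lay within 0.42 of each other on the log2 scale. The mean was 3.81 ± 0.15 after Vascepa and 3.95 ± 0.17 after vehicle (SD, n = 3 each), a log2 difference of −0.14 ± 0.19 (SE). Among the known LXR targets of the set, the log2 differences were thus −0.78 in Pltp, 0.35 in Abca1 and −0.14 in Abcg1. Pltp and Abca1 were the least alike pair, with a root mean square of 0.68 between their centred profiles.

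**Figure D2:**
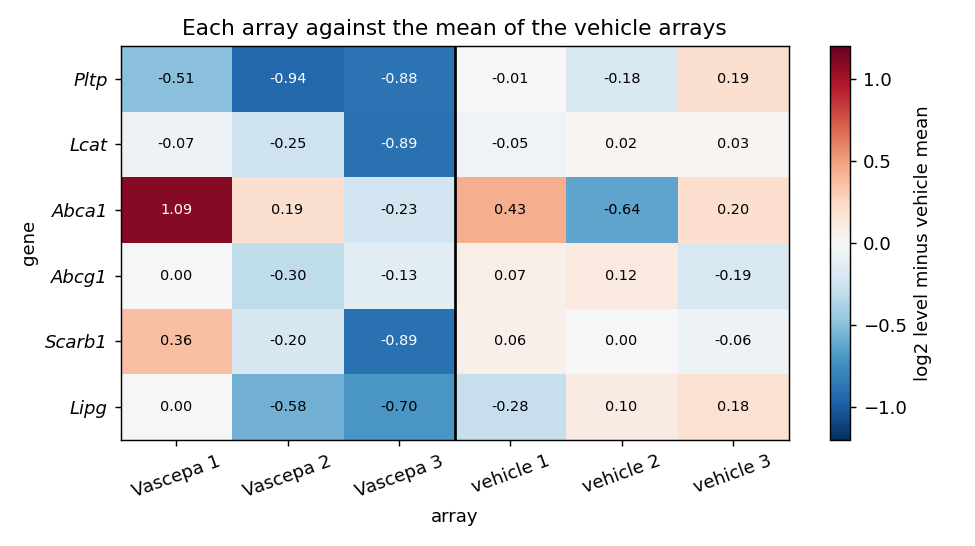
Log2 level of each measured HDL remodelling gene (rows) on each array (columns, Vascepa left of the line and vehicle right of it) minus the mean of the vehicle arrays, printed in each cell and coloured from blue (lower) to red (higher). Pltp is below the vehicle mean on every Vascepa array, by 0.51 to 0.94, and Vascepa array 3 is the array on which all 6 genes are below it.

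The Vascepa arrays differed from each other in how many of the 6 genes lay below the vehicle mean. This held for 3 genes on Vascepa array 1, 5 on array 2 and 6 on array 3, and the median deviation was 0.00062, −0.27 and −0.79. Pltp lay below the vehicle mean on each of them, at −0.51, −0.94 and −0.88. The 76 small nucleolar RNA probes also differed between arrays, with mean log2 levels of 5.40, 6.44 and 6.98 on Vascepa arrays 1, 2 and 3, against 5.54, 6.33 and 5.76 on vehicle arrays 1, 2 and 3. Vascepa array 3, the highest in these, was also the array least correlated with the others across genes (mean r of 0.938, against 0.959 to 0.973 on the other 5 arrays). With the small nucleolar RNA level as a covariate, the log2 difference was −0.67 ± 0.17 in Pltp, −0.26 ± 0.19 in Lcat, −0.0025 ± 0.20 in Scarb1 and 0.73 ± 0.17 in Abca1 (SE). None of the 6 genes passed the adjusted threshold in that fit, which has a further term on the same 6 arrays. Without the covariate the Abca1 difference was 0.35 ± 0.40 (SE).

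**Figure D3:**
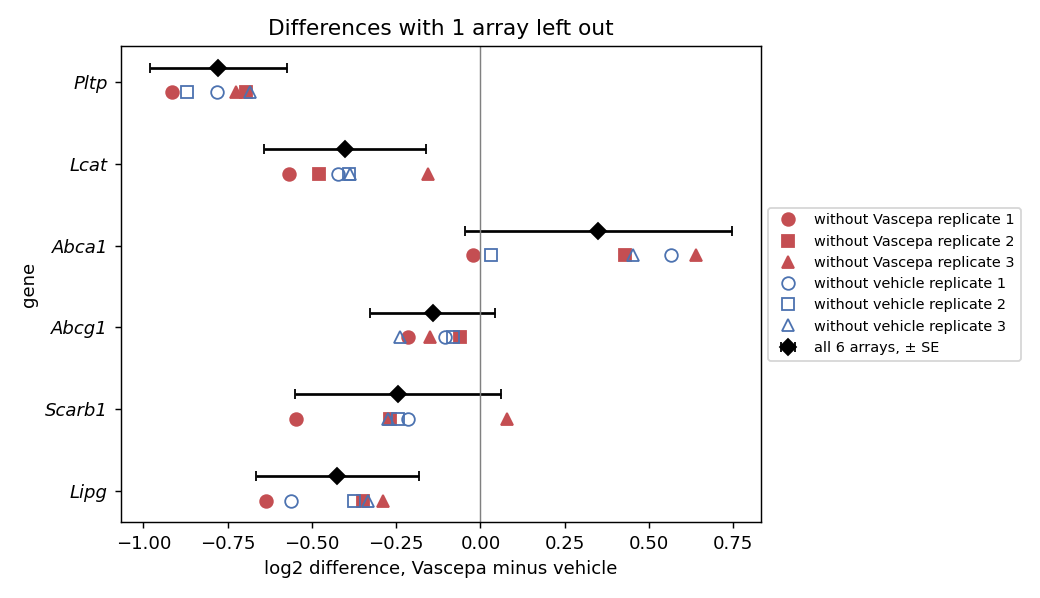
Log2 difference, Vascepa minus vehicle (horizontal axis), of each measured HDL remodelling gene with all 6 arrays (black diamonds, bars ± SE) and with 1 array left out (filled red symbols for a Vascepa array, open blue symbols for a vehicle array). Pltp stays between −0.91 and −0.68, while Scarb1 crosses 0 without Vascepa array 3 and Abca1 without Vascepa array 1.

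Pltp, Abca1 and Abcg1 are expressed in macrophages as well as in hepatocytes, and a piece of liver holds both. In bulk tissue, fewer cells of a type and less RNA per cell cannot be told apart. Of 15 markers of Kupffer cells and other macrophages, 13 had a lower mean after Vascepa (median log2 difference −0.19), against 60.1% of all genes tested. None of the 15 passed the test. Their mean log2 level was 5.86, 6.04 and 6.25 on Vascepa arrays 1, 2 and 3, against 6.32, 6.24 and 6.26 on vehicle arrays 1, 2 and 3. The brightest of these markers, Lyz2 and C1qb, a macrophage lysozyme and a complement subunit, differed by 0.19 ± 0.50 and −0.52 ± 0.25 (SE). In 3 of the 15, as in Pltp, all Vascepa arrays lay below all vehicle arrays, against 5.11% of all genes tested. These 3, named after their values were seen, were Vsig4, a complement receptor of Kupffer cells, at −0.53 ± 0.18, Cd68, a lysosomal protein of macrophages, at −0.54 ± 0.20 and Timd4, a receptor for dying cells, at −0.54 ± 0.22 (SE).

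Markers of lipid-laden macrophages had a lower mean after Vascepa in 3 of 5 tested (median −0.090), against 60.1% of all genes tested. With Gpnmb and Itgax, which lay under the filter, 3 of 7 had a lower mean and the median was 0.067, so its sign turned. None of the 5 passed the test. Atp6v0d2, a subunit of the lysosomal proton pump, differed by more than Pltp and was named after its values were seen. It read 2.53, 2.93 and 2.83 on Vascepa arrays 1, 2 and 3, against 4.44, 3.88 and 4.04 on vehicle arrays 1, 2 and 3, with no overlap (difference −1.36 ± 0.22, SE; limma, adjusted p = 0.976). Its Vascepa levels lay near the filter level of 2.65, and all Vascepa arrays lay below all vehicle arrays in 5.11% of all genes tested. Cd9, a tetraspanin, and Lgals3, a galectin, differed by −0.15 ± 0.18 and 0.071 ± 0.22 (SE). The part of macrophages in the Pltp difference was not tested.

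Other cell type markers are given for the same reason. Hepatocyte markers lay far above the filter level, with Alb, serum albumin, at a mean of 13.27 after Vascepa and 13.31 after vehicle. Ttr, transthyretin, averaged 12.87 after Vascepa and 12.94 after vehicle. Of 9 measured hepatocyte markers, 7 had a lower mean after Vascepa (median −0.16), against 60.1% of all genes tested. Their mean level was 11.98, 11.65 and 11.29 on Vascepa arrays 1, 2 and 3, against 11.90, 11.62 and 11.82 on vehicle arrays 1, 2 and 3. Of 8 sinusoidal endothelial markers, the cell type for which Lipg is named, 7 had a lower mean (median −0.10), against the same 60.1%. Clec4g and Kdr differed by 0.067 ± 0.27 and −0.078 ± 0.22 (SE). The most negative differences were those of Pecam1, at −0.43 ± 0.20, and Oit3, at −0.44 ± 0.39 (SE), both chosen after their values were seen. In Pecam1 all Vascepa arrays lay below all vehicle arrays, as in 5.11% of all genes tested. The 8 endothelial markers had a mean level of 6.46, 6.21 and 5.99 on Vascepa arrays 1, 2 and 3, against 6.50, 6.30 and 6.33 on vehicle arrays 1, 2 and 3, lowest on Vascepa array 3 as in hepatocyte markers. The part of these cells in the Lipg difference was not tested.

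Genes of proteins carried on HDL lay on both sides of 0. Of 12 genes of HDL particle proteins, 7 had a lower and 5 a higher mean after Vascepa, and none passed the test. The median log2 difference was −0.06, the same to 2 decimals as over all genes tested. All 12 reached the 75th percentile of all probes, however, and the median over all genes that did so was lower, at −0.14. Apoa1, the main protein of HDL, had log2 levels of 11.74, 11.72 and 11.75 on Vascepa arrays 1, 2 and 3, against 11.75, 11.83 and 11.75 on vehicle arrays 1, 2 and 3 (difference −0.040 ± 0.16, SE). All Vascepa arrays of Apoa1 lay below all its vehicle arrays, as in 5.11% of all genes tested, but barely. The highest Vascepa level was 11.751 and the lowest vehicle level 11.752. Apoa4, an apolipoprotein of triglyceride-rich particles and HDL, was the member with the smallest p, at 10.68, 10.44 and 10.65 on Vascepa arrays 1, 2 and 3, against 9.73, 10.33 and 10.43 on vehicle arrays 1, 2 and 3. Its Vascepa arrays all lay above its vehicle arrays (difference 0.43 ± 0.23, SE), as did those of 3.13% of all genes tested. The difference was 0.21 without vehicle array 1, its lowest array. Clu, the chaperone clusterin, and Pon3, an antioxidant lactonase of HDL, differed by −0.27 ± 0.27 and −0.24 ± 0.20 (SE). Without Vascepa array 3 they differed by −0.060 and −0.12, and without Vascepa array 1 by −0.55 and −0.38. None of these 4 genes passed (limma, adjusted p = 0.976 for Apoa4, Clu and Pon3 and 0.984 for Apoa1).

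Genes that process or regulate the remodelling proteins lay lower after Vascepa in the mean, by an amount that moved with Vascepa arrays 1 and 3. All 10 measured of 12 had a lower mean, against 60.1% of all genes tested. The median log2 difference was −0.34, and none passed the test. Without Vascepa array 3 the median was −0.020, and without Vascepa array 1 it was −0.67. Pcolce2, an enhancer of the protease that matures procollagen and apolipoprotein A-I, read 3.86, 3.40 and 3.65 on Vascepa arrays 1, 2 and 3, against 4.06, 4.60 and 4.22 on vehicle arrays 1, 2 and 3. Its Vascepa arrays all lay below its vehicle arrays, as did those of 5.11% of all genes tested. The difference of −0.66 ± 0.22 (SE) was −0.66 without Vascepa array 3 too. Galnt2, a glycosyltransferase that acts on PLTP among other proteins, read 5.87, 5.07 and 4.76 on Vascepa arrays 1, 2 and 3, against 6.42, 5.88 and 5.79 on vehicle arrays 1, 2 and 3. Its groups overlapped through Vascepa array 1 (difference −0.80 ± 0.32, SE, and −0.56 without Vascepa array 3). Pcsk6, a convertase able to cleave endothelial lipase, differed by −0.45 ± 0.39 (SE), or −0.068 without Vascepa array 3. None of these 3 genes passed (limma, adjusted p = 0.976 for each).

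In LXR receptors and targets outside the set, the list median also moved with Vascepa arrays 1 and 3. Of 9 measured of 12 genes, 8 had a lower mean after Vascepa, against 60.1% of all genes tested. The median log2 difference was −0.21, and none passed the test. The median was 0.017 without Vascepa array 3 and −0.51 without Vascepa array 1. Nr1h3, which encodes LXR alpha, read 5.85, 6.07 and 6.42 on Vascepa arrays 1, 2 and 3, against 5.81, 6.44 and 6.07 on vehicle arrays 1, 2 and 3. The groups overlapped, with a difference of 0.014 ± 0.24 (SE), or −0.14 without Vascepa array 3, on which it was highest of the Vascepa arrays. Rxra, the partner of LXR on DNA, differed by −0.43 ± 0.47 (SE), or 0.049 without Vascepa array 3. Lpcat3, which builds polyunsaturated phospholipids, differed by −0.45 ± 0.36, Abcg5, a half-transporter that excretes sterols into bile, by −0.30 ± 0.30 and Smpdl3a, a phosphodiesterase, by −0.20 ± 0.21 (SE). Without Vascepa array 3 these differences were −0.072 in Lpcat3, 0.054 in Abcg5 and −0.34 in Smpdl3a, and without Vascepa array 1 they were −0.81, −0.51 and −0.046. Nr1h2, which encodes LXR beta, was not analysed here. Among these 5 genes no adjusted p was under 0.976 (limma).

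**Figure D4:**
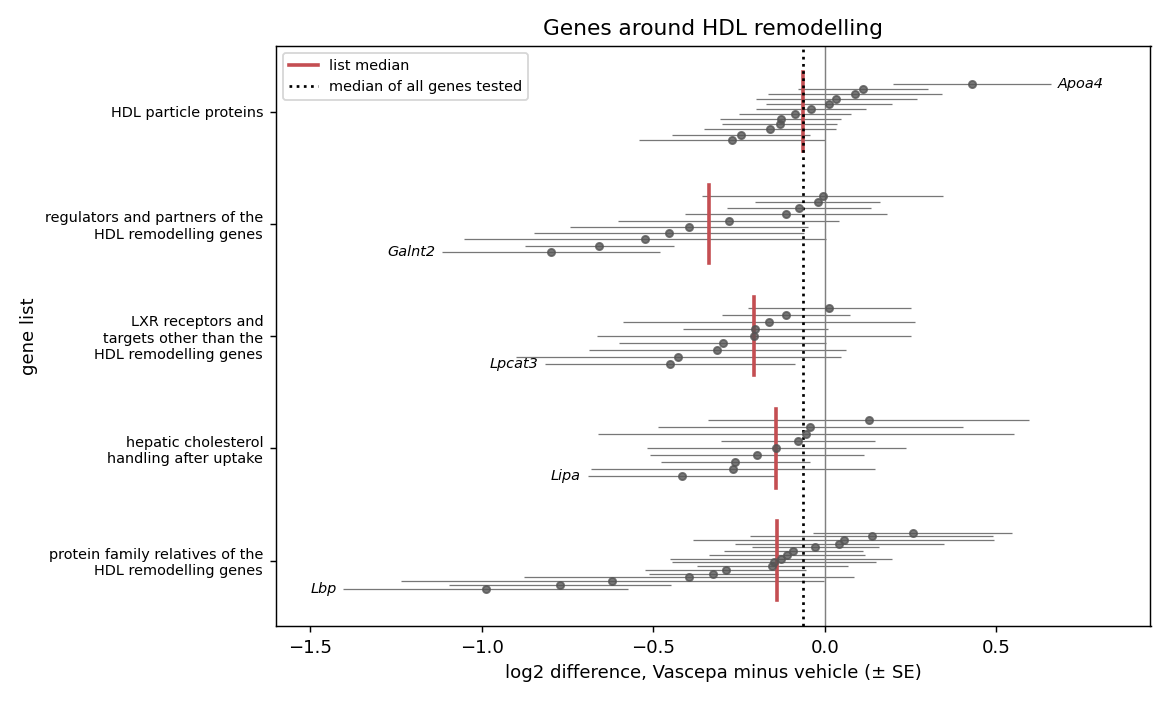
Log2 differences, Vascepa minus vehicle (horizontal axis, ± SE), of the tested genes in 5 lists around HDL remodelling, 1 point per gene, with the largest difference of each list named. Red lines are list medians, from −0.34 in regulators and partners to −0.06 in HDL particle proteins, and the dotted line is the median of all genes tested, −0.06.

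Profiles most like that of Pltp were sought among 12617 tested genes by the root mean square of the differences between centred log2 values over the 6 arrays, where lower means more alike. The 5 closest were Wdr83 at 0.10, Plin4 at 0.11, Ifi30 at 0.12, Sgtb at 0.12 and C87436 at 0.12, against a median of 0.46 over all these genes. Their log2 differences lay between −0.80 and −0.57, near that of Pltp because they were chosen for profiles like it. Among the other measured remodelling genes, Lipg came closest to Pltp, at 0.25. The 3 genes closest to Lcat were H60c, Slc46a1 and Zfp516 (0.024 to 0.046), and those closest to Scarb1 were F7, Seh1l and Asgr2 (0.051 to 0.061). Fitm2, Bmp4 and Rundc1 were closest to Lipg (0.070 to 0.085). Atn1, Helz2 and Kmt2c were closest to Abca1 (0.10 to 0.14), and Fam3a, Sigirr and Tacc3 to Abcg1 (0.035 to 0.042). Profiles over 6 arrays that were close to it were found for each of the 6 genes, and the likeness is given as a description.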

How the data were processed

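The authors deposited log2 expression values, 1 per probe (transcript cluster) and array, made with Affymetrix Expression Console and RMA per the submitters' processing notes. Tool versions and a genome build were not given in the sources used here. The method corrects background, quantile-normalizes and summarises probes, and compresses differences at the dim end. The number of arrays limits the precision, and scan batches were not tested.

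Of 41345 probes, 23521 had 1 gene symbol in the platform annotation, 1814 several and 16010 no entry. Symbols were updated by gene ID for 23328 probes through a RefSeq table (GRCm38.p6). Genes were kept where the mean of the brightest single-symbol probe reached the median of all probes (2.65). limma 3.58.1 in R 4.3.3 (lmFit, eBayes) compared Vascepa with vehicle over 13493 genes, with Benjamini-Hochberg adjustment and no covariate. On 20 simulated data sets of this comparison over 13493 genes it recovered 24.6% of genes changed by a log2 difference of 1 and 75.2% of those changed by 2, with 3.95% false calls among all calls. The simulated noise was normal and drawn separately for each gene. It held no variation that genes of an array share, so these shares may not hold for the real arrays. The genes and lists were chosen with earlier results of these data known. Named genes were the HDL remodelling genes, Nr1h3, Nr1h2, Rxra and Apoa1, the 3 genes of each pathway list with the smallest unadjusted p, the 2 brightest of each marker list, and the closest profiles, leaving out predicted and clone names (symbols starting with Gm or ending with Rik). Alternatives covered the filter, normalization, prior, weights, probe choice, replicate block, small nucleolar RNA level and single arrays left out.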

Additional observations from a re-analysis of the deposited data

How the results depend on the processing

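The Pltp difference stayed below 0 under all 15 alternatives, between −0.91 and −0.68 with single arrays left out, and −1.05 with array weights. The weights were 39.5 on Vascepa array 2 and at most 2.33 on any other. Pltp was chosen for this difference, and all its Vascepa arrays lay below all its vehicle arrays. Leaving arrays out or weighting them therefore could not turn its sign. Changes of filter, prior, probe choice or block left its difference at −0.78 by construction. No gene passed the adjusted threshold under 13 of the 15 alternatives, the 6 that leave out single arrays among them (0 in each), while array weights called 4100 genes and the small nucleolar RNA covariate 3, Cyp2b13, Cyp2b9 and Orm3, named after their values were seen. Genes at an unadjusted p under 0.05 numbered 362, and 2018 without Vascepa array 1, 198 without vehicle array 1, 141 without vehicle array 3 and 221 without Vascepa array 2. Of these counts, only that without Vascepa array 1 was a larger share of the 13493 genes than 0.05. With each array centred on its median, the median of all genes was −0.14 and the Pltp difference −0.85. With the replicate number as a block, 0 genes passed, 438 had an unadjusted p under 0.05 and the Pltp difference was −0.78 ± 0.21 (SE). Deviations of same-numbered arrays correlated at 0.606, 0.108 and −0.129, and 3 of the 6 arrays correlated best with their own number. With so few arrays these values cannot decide whether the numbers pair the arrays. Abcg1 lay below the filter at the 75th percentile and gave no value there. Without Vascepa array 3 the median log2 difference was 0.15 for hepatic cholesterol handling and 0.083 for protein family relatives. With the small nucleolar RNA covariate these 2 medians were 0.13 and 0.031. Under that covariate the median was −0.051 for regulators and partners, −0.042 for LXR receptors and targets and −0.091 for HDL particle proteins. The cause of these shifts was not tested.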

Other observations

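Relatives of the remodelling proteins included the largest difference in size in the 5 pathway lists, that of Lbp. Of 16 tested of 22 relatives, 12 had a lower mean after Vascepa, against 60.1% of all genes tested. The median log2 difference was −0.14, and none passed the test. Lbp, which binds bacterial lipopolysaccharide and belongs to the same protein family as PLTP, read 9.35, 8.18 and 7.81 on Vascepa arrays 1, 2 and 3, against 9.97, 9.22 and 9.12 on vehicle arrays 1, 2 and 3. Its groups overlapped through Vascepa array 1 (difference −0.99 ± 0.41, SE, and −0.67 without Vascepa array 3). Cd36, a fatty acid receptor of the same family as SR-BI, read 7.32, 8.10 and 8.59 on Vascepa arrays 1, 2 and 3, against 8.53, 9.00 and 8.78 on vehicle arrays 1, 2 and 3. Here the lowest array was Vascepa array 1, and the difference was −0.77 ± 0.32 (SE), or −0.43 without it. Abcg3, a mouse half-transporter of the ABCG family, differed by −0.33 ± 0.19 (SE), with all Vascepa arrays below all vehicle arrays. Such a separation held for 1 of the 16 tested relatives, against 5.11% of all genes tested. None of these 3 genes passed (limma, adjusted p = 0.976 for each).

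Genes that handle cholesterol in the liver after uptake had a lower mean after Vascepa in 8 of 9 measured cases of 12, against 60.1% of all genes tested. Their median log2 difference was −0.14, and none passed. Lipa, the lysosomal acid lipase, differed by −0.42 ± 0.27, Nceh1, a neutral cholesteryl ester hydrolase, by −0.26 ± 0.22 and Npc1, which exports cholesterol from lysosomes, by −0.27 ± 0.41 (SE). Without Vascepa array 3 the Npc1 difference was 0.15, and those of Lipa and Nceh1 were −0.25 and −0.11.

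Of the remaining marker lists none had a member past the test. Stellate cell markers had a lower mean in 6 of 7 tested (median −0.13), against 60.1% of all genes tested. Dcn and Lrat differed by −0.13 ± 0.18 and −0.19 ± 0.24 (SE). Cholangiocyte markers had a higher mean in 3 of 4 (median 0.083), with Krt7 and Sox9 at 0.30 ± 0.30 and −0.43 ± 0.34 (SE). Of adipocyte markers 2 were tested, Plin1 at 0.30 ± 0.22 and Retn at −0.057 ± 0.19 (SE), while Adipoq and Lep lay under the filter. Of skeletal muscle markers 3 of 4 had a higher mean (median 0.42), with Acta1 at 0.52 ± 0.18 and Tnnt3 at −0.12 ± 0.16 (SE).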
